A study of Mus musculus with 30 samples.

Results

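Cholesterol synthesis was described in the mouse colon through 8 genes chosen by name from a table of 46078 genes, namely the enzyme genes Hmgcs1, Idi1, Fdps, Sqle, Lss and Cyp51 and the regulator genes Insig1 and Srebf2. All 8 were found under these symbols, and all 8 were among the 16261 genes with enough counts to be tested. The libraries were made from poly(A) RNA of the scraped, non-tumour epithelial layer of the colon of wild-type C57BL/6J mice. They fell into 6 groups of 5 mice, female and male mice given vehicle, female and male mice killed 9 weeks after azoxymethane (AOM), and female and male mice killed 15 weeks after AOM. AOM, a carcinogen, was injected once intraperitoneally at 10 mg/kg, and dextran sodium sulfate (DSS), which injures the colonic epithelium and causes colitis, was then given at 2.5% in the drinking water in 3 cycles. The mice were 5 to 10 weeks old at the start, and vehicle-treated mice received saline by injection. Every vehicle-treated mouse carries the 9-week label, so at 15 weeks the treatment and the later time of killing cannot be told apart. The labels record no feeding state and no time of day.

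Cholesterol is built from acetyl-CoA through mevalonate, the isoprenoid phosphates, squalene and lanosterol. When sterols are scarce in the endoplasmic reticulum, the transcription factor SREBP2, the product of Srebf2, is carried to the Golgi by SCAP and cut, and its released part turns on the genes of the whole pathway and genes of sterol uptake. When sterols are plentiful, the INSIG proteins hold SCAP back, and since Insig1 is itself a target, its transcript rises and falls with the pathway. In the intestine, cholesterol is needed for the membranes of the steadily renewed epithelium, and the transporter pair ABCG5 and ABCG8 returns sterols to the lumen.

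Counts assigned to genes ran from 9265804 to 30806392 per library, the lowest belonging to female vehicle replicate 5. Levels are given as CPM, counts scaled to a common library size, after scaling by the trimmed mean of M values (TMM), and between genes as deposited TPM, which is per transcript length. The mitochondrial gene mt-Nd4l held 39.2% to 58.1% of all TPM, so TPM was not used to compare libraries. Mitochondrial genes together held 3.95% to 23.0% of counts per library, and 4.01% to 11.9% at 9 weeks. The epithelial label was met, with 8 epithelial markers summing to between 9823 and 18500 CPM in every library. Other cell types varied between groups. The 6 smooth muscle markers summed to between 33.2 and 5277 CPM in male vehicle libraries, the top value being male vehicle replicate 1, but to between 2.14 and 66.2 CPM in male 15-week libraries. The 8 leukocyte markers summed to between 25.8 and 95.0 CPM in female vehicle libraries and to between 63.5 and 280.8 CPM in female 9-week libraries, with S100a8 at 0 in every female vehicle library. The 4 liver markers (Alb, Ttr, Apob and Cyp7a1) summed to between 94.9 and 496 CPM per library, though Cyp7a1 was at 0 in every library. Which cells made the transcripts in this sum was not tested, so it is not a measure of liver cells. In bulk tissue, fewer cells of a type and less RNA per cell cannot be told apart.

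On the TPM scale the levels of the 8 genes spanned a range from Hmgcs1, with a median over 30 libraries of 62.2 TPM, down to Lss, with 7.58 TPM. Between them stood Fdps at 56.9, Insig1 at 30.3, Srebf2 at 24.4, Sqle at 23.5, Cyp51 at 21.3 and Idi1 at 18.2 TPM. Hmgcs1 exceeded Fdps in 15 of 30 libraries and Srebf2 exceeded Sqle in 15 of 30, so neither pair could be ordered, and on the deposited FPKM scale both pairs changed places. Fdps exceeded Insig1 in 30 of 30 libraries, and Idi1 exceeded Lss in 30 of 30. The place of Fdps is uncertain, since its counts were few for its FPKM. The remaining neighbours were less separated, with Insig1 above Srebf2 in 19 libraries, Sqle above Cyp51 in 19 and Cyp51 above Idi1 in 25. The genes lie at chr13:119690462-119708086, plus strand (Hmgcs1), chr13:8885501-8892451, plus strand (Idi1), chr3:89093588-89101959, minus strand (Fdps), chr15:59315077-59331192, plus strand (Sqle), chr10:76531588-76557138, plus strand (Lss), chr5:4081145-4104746, minus strand (Cyp51), chr5:28071363-28078662, plus strand (Insig1) and chr15:82147266-82205376, plus strand (Srebf2) on GRCm38, as the deposited files place them.

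Proximal promoter windows, 250 bases before to 50 after the annotated start, were at hand for 6 of the 8 genes (RefSeq, GRCm38.p6), and for 4 of them the 250 upstream bases are shown because they differ in the sterol-response letters. Capitals mark CACNCCA, the core letters of a sterol regulatory element, and CCAAT, the letters bound by the NF-Y factor that works beside SREBP2, each on either strand. Hmgcs1 is shown for chr13:119690101-119690350 on the plus strand, Srebf2 for chr15:82147019-82147268 on the plus strand, Idi1 for chr13:8885356-8885605 on the plus strand and Cyp51 for chr5:4104698-4104947 on the minus strand. These RefSeq starts differ from the deposited gene positions given above. The deposited Idi1 begins at 8885501 and the deposited Cyp51, on the minus strand, begins at 4104746, so part of each window lies within the gene as deposited.
Hmgcs1: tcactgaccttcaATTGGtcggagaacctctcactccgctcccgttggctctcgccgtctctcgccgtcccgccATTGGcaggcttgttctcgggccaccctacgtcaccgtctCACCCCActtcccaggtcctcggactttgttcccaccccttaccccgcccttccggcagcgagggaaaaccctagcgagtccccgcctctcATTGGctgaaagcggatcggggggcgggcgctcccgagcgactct
Srebf2: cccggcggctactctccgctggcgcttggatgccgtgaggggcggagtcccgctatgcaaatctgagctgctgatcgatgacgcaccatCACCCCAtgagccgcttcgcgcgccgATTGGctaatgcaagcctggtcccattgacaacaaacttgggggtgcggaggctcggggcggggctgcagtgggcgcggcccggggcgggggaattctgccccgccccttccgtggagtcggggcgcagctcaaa
Idi1: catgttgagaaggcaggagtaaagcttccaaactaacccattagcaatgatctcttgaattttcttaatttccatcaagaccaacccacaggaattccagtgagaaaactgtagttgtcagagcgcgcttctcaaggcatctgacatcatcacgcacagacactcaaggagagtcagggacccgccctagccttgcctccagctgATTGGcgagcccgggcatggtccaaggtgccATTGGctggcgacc
Cyp51: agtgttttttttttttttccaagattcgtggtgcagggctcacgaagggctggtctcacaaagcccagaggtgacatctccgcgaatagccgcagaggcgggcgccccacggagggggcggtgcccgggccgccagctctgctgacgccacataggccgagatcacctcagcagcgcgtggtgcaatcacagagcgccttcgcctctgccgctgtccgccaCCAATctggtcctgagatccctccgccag
CACCCCA, the stricter form of the sterol letters, stood at base -136 in Hmgcs1 and at base -161 in Srebf2, and in none of the other 4 windows, against 7.62% of 32851 mouse promoter windows of this length. With any base in the fourth place (CACNCCA, which covers every CACCCCA) Insig1 matched too, for 3 of 6 against 18.4% of all windows. CCAAT was found in 6 of 6 windows, against 37.4% of all, and in those of 10 of 11 further cholesterol enzyme genes with a window. Of those 11 windows, CACCCCA was in 1 and CACNCCA in 2. The E-box CACGTG was present in Insig1 alone among the 6, against 7.15% of all windows. A match describes letters only, and a window without one says nothing of more distant sequence.

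After 9 weeks of AOM/DSS, with the sexes averaged, 5 of the 8 genes were higher than in vehicle-treated mice: Idi1, Cyp51, Sqle, Hmgcs1 and Lss, by 1.55-fold to 1.79-fold. The other 3, Fdps, Insig1 and Srebf2, did not pass the test on counts, and none of the 8 was called lower. A gene was called when edgeR's quasi-likelihood test gave an adjusted p under 0.05, its log2 fold change exceeded 0.4 in either direction and its mean FPKM reached 1 in a compared group. Of all genes tested, 8.51% were called in this comparison, 5.65% higher and 2.87% lower. The median log2 fold change of the 8 genes was 0.66, against -0.02 over all genes tested. Leukocyte transcripts rose in the same comparison, 6 of 8 markers being called higher with a median log2 fold change of 1.15. With the mean log2 level of these markers as a covariate, added after seeing the data, none of the 8 genes was called, the 8 log2 fold changes lay between 0.19 and 0.61, and 33 of all genes tested were called in place of 1384 (edgeR, adjusted p from 0.32 for Cyp51 to 0.78 for Insig1). The treatment and the leukocyte content differ together between these groups, and their shares in the values cannot be told apart.

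**Figure D1:**
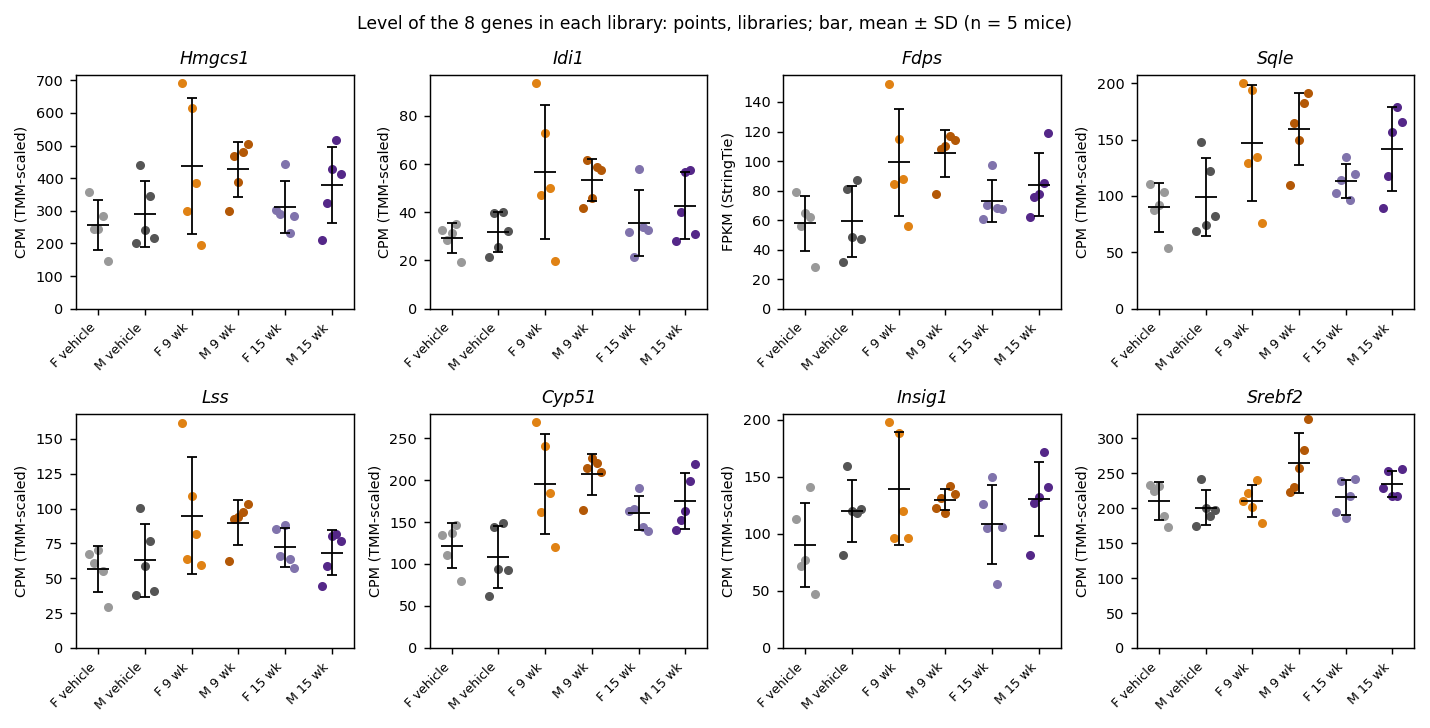
Level of each of the 8 genes in every library (y axis, TMM-scaled CPM, or deposited FPKM for Fdps) by group (x axis, F female, M male), with the mean and SD of 5 mice drawn over the points. In the Cyp51 panel the 9-week points lie between 120.8 and 269 CPM, against 62.4 to 148 CPM in the vehicle groups, and Srebf2 shows the smallest differences between groups.

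Hmgcs1 encodes the cytosolic HMG-CoA synthase, an early enzyme of the mevalonate stage. Its values in vehicle-treated mice were 356, 244, 245, 285 and 145 in the females and 200.3, 439, 242, 346 and 217 in the males (CPM, replicates 1 to 5 in order). At 9 weeks Hmgcs1 stood at 690.3, 299.9, 615, 386 and 196 in the females and 299, 468, 389, 479 and 505 in the males. At 15 weeks Hmgcs1 stood at 302, 290.3, 444, 232 and 285 in the females and 211, 325, 428, 517 and 413 in the males. At 9 weeks 5 of 10 libraries exceeded the highest vehicle library and 9 of 10 the vehicle median, while female replicate 5 stayed low among the vehicle values. The mean rose from 272 ± 86.5 CPM (SD, n = 10) to 433 ± 151 CPM (SD, n = 10), a log2 fold change of 0.67 ± 0.21 (SE, adjusted p = 0.025, edgeR's quasi-likelihood test with Benjamini-Hochberg adjustment). The call was lost without female 9-week replicate 1 (log2 fold change 0.56, adjusted p = 0.066 in edgeR), female 9-week replicate 3 (0.59, adjusted p = 0.056) or female vehicle replicate 5 (0.60, adjusted p = 0.050). At 15 weeks the mean was 345 ± 100.3 CPM (SD, n = 10) with 2 of 10 libraries above all vehicle ones, and the log2 fold change of 0.34 ± 0.21 (SE) did not pass (edgeR, adjusted p = 0.25).

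Idi1 encodes isopentenyl-diphosphate isomerase, which interconverts the isoprene units from which longer isoprenoids are assembled. Vehicle-treated mice had 32.8, 28.6, 31.5, 35.1 and 19.2 in the females and 21.6, 39.6, 25.7, 40.1 and 32.2 in the males (CPM, replicates 1 to 5). The 9-week libraries held 93.5, 47.4, 72.9, 50.1 and 19.9 in the females and 41.8, 61.6, 46.1, 58.8 and 57.7 in the males. The 15-week libraries held 31.7, 21.5, 58.1, 33.9 and 32.6 in the females and 28.1, 40.2, 56.6, 57.5 and 31.1 in the males. All 9-week libraries except female replicate 5 lay above the highest vehicle library, whereas at 15 weeks 4 of 10 did. The mean was 30.6 ± 6.97 CPM (SD, n = 10) in vehicle-treated mice, 55.0 ± 19.5 CPM at 9 weeks and 39.1 ± 13.5 CPM at 15 weeks. This was the largest 9-week log2 fold change of the 8 genes, 0.84 ± 0.21 (SE, edgeR, adjusted p = 0.0053), and the log2 fold change at 15 weeks was 0.35 ± 0.21 (SE, edgeR, adjusted p = 0.24).

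Fdps encodes farnesyl diphosphate synthase, whose product feeds both squalene and protein prenylation. Its counts were few for its FPKM, so its values are given here as deposited FPKM. The vehicle libraries held 79.1, 55.7, 64.6, 62.0 and 28.5 in the females and 31.7, 80.9, 48.5, 87.4 and 47.0 in the males (FPKM, replicates 1 to 5). Mice killed at 9 weeks had 152, 84.2, 114.7, 87.96 and 55.9 in the females and 77.3, 108, 110.3, 117 and 114.05 in the males. Mice killed at 15 weeks had 61.0, 70.4, 97.4, 68.3 and 67.2 in the females and 62.1, 75.5, 77.9, 84.8 and 119 in the males. At 9 weeks 7 of 10 libraries lay above the highest vehicle library and at 15 weeks 2 of 10 did, though all 10 exceeded the vehicle median. On log2 FPKM after TMM scaling, an alternative chosen after seeing the data, limma gave a log2 fold change of 0.79 at 9 weeks (adjusted p = 0.0038) and 0.63 at 15 weeks (adjusted p = 0.025). On log2 FPKM as deposited, limma gave 0.83 at 9 weeks (adjusted p = 0.0032) and 0.47 at 15 weeks (adjusted p = 0.077), which did not pass. On counts, edgeR gave 0.65 ± 0.29 (SE, adjusted p = 0.14) at 9 weeks and 0.16 ± 0.29 (SE, adjusted p = 0.73) at 15 weeks, and neither passed.

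Sqle encodes squalene epoxidase, a rate-limiting, oxygen-requiring step of the sterol branch. Its values in vehicle-treated mice were 111, 87.96, 92.2, 104 and 54.0 in the females and 68.6, 148, 74.5, 121.9 and 82.3 in the males (CPM, replicates 1 to 5 in order). At 9 weeks Sqle stood at 200.4, 129, 194, 135 and 75.7 in the females and 110.1, 164, 149.5, 182 and 191 in the males. At 15 weeks Sqle stood at 103, 114.4, 135, 96.1 and 119 in the females and 89.2, 118, 156.8, 179 and 165.7 in the males. At 9 weeks 6 of 10 libraries exceeded every vehicle library, and 3 of 10 did at 15 weeks. The mean rose from 94.4 ± 27.7 CPM (SD, n = 10) to 153 ± 41.0 CPM (SD, n = 10) at 9 weeks, a log2 fold change of 0.70 ± 0.17 (SE, edgeR, adjusted p = 0.0053). At 15 weeks it was 127 ± 30.5 CPM, with a log2 fold change of 0.42 ± 0.17 (SE, edgeR, adjusted p = 0.081). That value passed without male vehicle replicate 2 (log2 fold change 0.52, adjusted p = 0.034 in edgeR) or male 15-week replicate 1 (0.50, adjusted p = 0.048), and with DESeq2 (0.44, adjusted p = 0.0498).

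Lss encodes lanosterol synthase, which closes the ring system of the sterols. Vehicle-treated mice had 67.7, 60.9, 70.4, 55.4 and 29.4 in the females and 37.7, 100.6, 58.7, 76.7 and 40.7 in the males (CPM, replicates 1 to 5). The 9-week libraries held 161, 63.8, 109, 81.6 and 59.6 in the females and 62.3, 92.3, 94.3, 97.6 and 103 in the males. The 15-week libraries held 85.6, 65.9, 88.04, 63.7 and 57.6 in the females and 44.5, 58.6, 80.4, 82.1 and 76.8 in the males. The 9-week libraries overlapped the vehicle range, with 3 of 10 above it and 9 of 10 above the vehicle median, and at 15 weeks none lay above it. The mean went from 59.8 ± 20.9 CPM (SD, n = 10) to 92.5 ± 30.01 CPM (SD, n = 10) at 9 weeks, a log2 fold change of 0.63 ± 0.19 (SE, edgeR, adjusted p = 0.024), and stood at 70.3 ± 14.4 CPM at 15 weeks with a log2 fold change of 0.23 ± 0.19 (SE, edgeR, adjusted p = 0.40). The 9-week call was lost without female 9-week replicate 1, the highest library (log2 fold change 0.49, adjusted p = 0.071 in edgeR), and with the mean log2 level of the epithelial markers as a covariate (0.59, adjusted p = 0.068).

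Cyp51 encodes lanosterol demethylase, a cytochrome P450 and the target of azole antifungals in fungi. The vehicle libraries held 135, 111, 136, 146.4 and 80.2 in the females and 62.4, 143.6, 94.1, 148 and 93.0 in the males (CPM, replicates 1 to 5). Mice killed at 9 weeks had 269, 161.8, 241, 184 and 120.8 in the females and 164, 214, 226, 221 and 209 in the males. Mice killed at 15 weeks had 162.6, 165.5, 190.2, 144.1 and 139.03 in the females and 139.9, 152, 162.9, 199 and 219 in the males. At 9 weeks 9 of 10 libraries lay above the whole vehicle range, the count also seen for Idi1, and at 15 weeks 7 of 10 did, the highest count of the 8 genes. The mean was 115.1 ± 31.1 CPM (SD, n = 10) in vehicle-treated mice, 201 ± 43.5 CPM at 9 weeks and 167.5 ± 27.0 CPM at 15 weeks. The log2 fold change was 0.81 ± 0.15 (SE, edgeR, adjusted p = 0.00033) at 9 weeks and 0.54 ± 0.15 (SE, edgeR, adjusted p = 0.015) at 15 weeks. In each of the 20 fits leaving out 1 library the 9-week call was kept, with adjusted p in edgeR from 7.98e-05 to 0.0010, and the 15-week call too, with adjusted p from 0.0064 to 0.030, the highest being without male vehicle replicate 1 (log2 fold change 0.47).

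Insig1 encodes the endoplasmic reticulum protein that retains SCAP when sterols are plentiful. Its values in vehicle-treated mice were 113, 71.4, 77.0, 141 and 47.7 in the females and 81.5, 159.1, 119.9, 118 and 121.6 in the males (CPM, replicates 1 to 5 in order). At 9 weeks Insig1 stood at 198, 96.6, 188, 119.8 and 96.0 in the females and 123, 132, 119, 141.7 and 135 in the males. At 15 weeks Insig1 stood at 126, 105, 149.8, 56.1 and 106 in the females and 81.7, 127, 132, 171 and 141 in the males. The groups overlapped throughout, with 2 of 10 libraries above the vehicle range at 9 weeks and 1 of 10 at 15 weeks. The log2 fold change was 0.37 ± 0.18 (SE, edgeR, adjusted p = 0.18) at 9 weeks and 0.20 ± 0.18 (SE, edgeR, adjusted p = 0.47) at 15 weeks, so neither passed.

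Srebf2 encodes the precursor of SREBP2 itself, whose activity is set by cutting of the protein as well as by transcript level. Vehicle-treated mice had 233, 225, 232, 189.6 and 173 in the females and 175, 242, 201, 189.5 and 197 in the males (CPM, replicates 1 to 5). The 9-week libraries held 210.3, 222, 202, 239.9 and 178.4 in the females and 223, 230.5, 258, 284 and 327 in the males. The 15-week libraries held 195, 239, 185, 217 and 242 in the females and 229.7, 254, 218, 218 and 256 in the males. The values were the tightest of the 8 genes, and 3 of 10 libraries lay above the vehicle range at each time. The log2 fold change was 0.20 ± 0.08 (SE, edgeR, adjusted p = 0.094) at 9 weeks and 0.13 ± 0.08 (SE, edgeR, adjusted p = 0.25) at 15 weeks, and neither passed. In males alone at 9 weeks the p-value passed (edgeR, adjusted p = 0.026), but the log2 fold change of 0.398 ± 0.11 (SE) stayed under the 0.4 of the call rule. The protein and its cutting were not measured.

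At 15 weeks with the sexes averaged, Cyp51 was the 1 gene of the 8 that passed, where 7.79% of all genes tested were called, 3.54% higher and 4.25% lower. The 8 log2 fold changes ran from 0.13 to 0.54 with a median of 0.29, against -0.03 over all genes tested. The Cyp51 call was not held with the smooth muscle marker level as a covariate (log2 fold change 0.48, adjusted p = 0.066 in edgeR), the epithelial marker level (0.50, adjusted p = 0.16) or the leukocyte marker level (0.47, adjusted p = 0.052). The 6 smooth muscle markers were themselves all called lower at 15 weeks, with a median log2 fold change of -2.97, and 4 of 8 mesenchymal markers were called lower with a median of -1.35. At 9 weeks the smooth muscle markers had a median log2 fold change of -1.22 and none was called, an average of 6 of 6 called lower in males (median -5.06) and 6 of 6 positive but not called in females (median 2.58). Male vehicle replicate 1 held 5277 CPM of these markers summed, against 33.2 to 114.9 CPM in the other male vehicle libraries. The male group medians of that sum were 76.6 CPM with vehicle, 39.9 CPM at 9 weeks and 24.0 CPM at 15 weeks. The part of that library in the smooth muscle values was not tested. Under the smooth muscle covariate all 5 of the 9-week calls were held. Of the 8 epithelial markers 1 was called higher at 9 weeks (median 0.18) and 2 at 15 weeks (median 0.27), and of the 8 leukocyte markers 2 were called higher at 15 weeks (median 0.24). None of the 7 proliferation markers was called at 9 weeks, though all 7 were positive, with a median of 0.27. Of all genes tested, 5.65% were called higher and 2.87% lower at 9 weeks. None of the 3 tested liver markers was called at either time.

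Between 9 and 15 weeks none of the 8 genes passed in edgeR's test, against 2.42% of all genes called in either direction. In that test 2 of the 8 (Idi1 and Lss) had an unadjusted p under 0.05, as did 3846 of the 16261 genes tested. DESeq2 called none of the 8 either. The log2 fold changes of 15 over 9 weeks ran from -0.50 ± 0.21 (SE) in Idi1 (edgeR, adjusted p = 0.14) to -0.07 ± 0.08 (SE) in Srebf2 (edgeR, adjusted p = 0.63). Without female 9-week replicate 5, Idi1 passed with a log2 fold change of -0.59 (edgeR, adjusted p = 0.027). This comparison and those above share the 9-week or vehicle libraries, so they are not separate sets of mice.

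Within each sex, with 5 mice against 5, fewer genes passed. In males at 9 weeks only Cyp51 did, with a log2 fold change of 0.93 ± 0.21 (SE, edgeR, adjusted p = 0.0053), where 7.31% of all genes were called, 4.42% higher and 2.88% lower. DESeq2 called Sqle and Srebf2 as well, and edgeR called 3 genes without male vehicle replicate 2 and 2 genes without male 9-week replicate 1, 2 or 3. In females at 9 weeks none of the 8 passed in edgeR, where 2.9% of all genes were called (2.42% higher and 0.48% lower). DESeq2 called 2 (Idi1 and Cyp51). In edgeR 7 of the 8 had an unadjusted p under 0.05, as did 2796 of the 16261 genes tested. The log2 fold changes nearest to passing were 0.68 ± 0.21 (SE) for Cyp51 (edgeR, adjusted p = 0.063) and 0.94 ± 0.29 (SE) for Idi1 (edgeR, adjusted p = 0.066). Female 9-week replicate 5 decided the edgeR count of genes passing, since without it Hmgcs1, Sqle, Idi1 and Cyp51 passed, with log2 fold changes of 0.95, 0.85, 1.14 and 0.79. In males at 15 weeks Cyp51 passed (log2 fold change 0.69 ± 0.21 SE, edgeR, adjusted p = 0.028), where 8.92% of all genes were called (4.37% higher and 4.55% lower), but not without male vehicle replicate 1, male vehicle replicate 3, male vehicle replicate 5 or male 15-week replicate 5, each of which left a count of 0. In males all 6 smooth muscle markers were called lower at 9 weeks and at 15 weeks (median -5.39). Summed, they stood at 5277 CPM in male vehicle replicate 1, against 33.2 to 114.9 CPM in the other male vehicle libraries. With the smooth muscle covariate Cyp51 was called in males at 9 weeks (0.86, edgeR, adjusted p = 0.018) but not at 15 weeks. In females at 15 weeks none passed in edgeR or DESeq2, where 0.0984% of all genes were called, 0.0861% higher and 0.0123% lower. None of the 8 had an unadjusted p under 0.05 there in edgeR, against 1776 of the 16261 genes tested.

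The responses of the sexes were not shown to differ. The test of the difference itself, males minus females in the response at 9 weeks, called none of the 8 genes in edgeR. It called 0% of all genes tested. In it 1 of the 8 (Srebf2) had an unadjusted p under 0.05, as did 1205 of the 16261 genes tested. The largest value was -0.93 ± 0.58 (SE) in Fdps (edgeR, adjusted p = 0.73). That Fdps value rests on few counts, as low as 8 in female vehicle replicate 5. On deposited FPKM the Fdps mean went from 58.0 to 99.0 in females and from 59.1 to 105 in males at 9 weeks. At 15 weeks the test of the difference called none of the 8 in edgeR either, and again 0% of all genes tested. None of the 8 had an unadjusted p under 0.05 in it, against 1245 of the 16261 genes tested. DESeq2 called none in either test of the difference. Males compared directly with females showed no call in any of the 8 genes, by edgeR or DESeq2, in vehicle-treated mice, at 9 weeks or at 15 weeks. In edgeR 1 of the 8 had an unadjusted p under 0.05 (at 9 weeks), as did 630 of the 16261 genes tested at that time. In vehicle-treated mice, at 9 weeks and at 15 weeks, 0.178%, 0.0492% and 0.184% of all genes were called in either direction. The smallest of these, at 9 weeks, held 0.043% higher and 0.00615% lower in males.

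**Figure D2:**
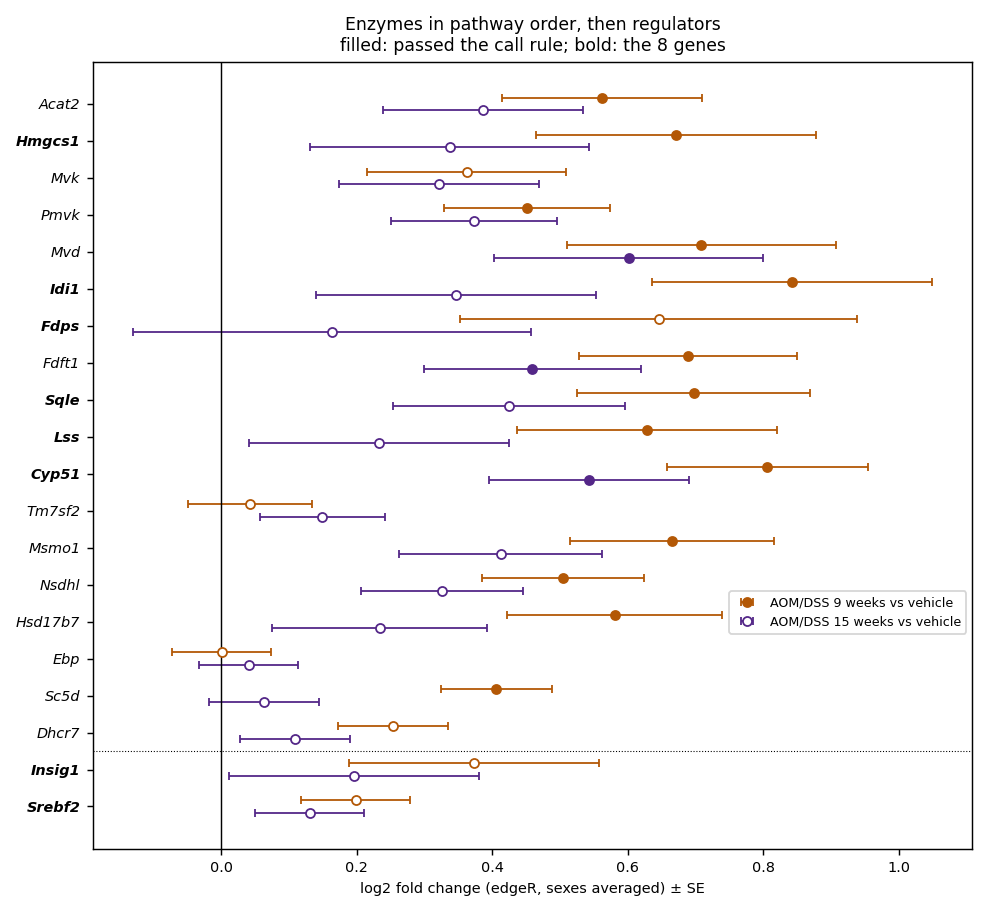
The log2 fold change over vehicle with the sexes averaged (x axis, with SE) for 18 enzyme genes of cholesterol synthesis in pathway order and for the regulator genes Insig1 and Srebf2 (y axis), at 9 weeks (orange) and 15 weeks (purple), filled where the call rule was met. At 9 weeks 13 of 18 enzyme genes are filled, against 3 of 18 at 15 weeks, and all lie to the right of 0. Of all genes tested, 8.51% met the rule at 9 weeks and 7.79% at 15 weeks.

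The pathway as a whole was read from 12 further enzyme genes, which with the 6 above make 18. At 9 weeks 13 of the 18 were called higher and none lower, against 5.65% higher and 2.87% lower of all genes tested. All 18 had a positive log2 fold change, and the median was 0.60, against -0.024 over all genes tested. With the leukocyte covariate none of the 18 was called in edgeR. The further genes called were Acat2, Pmvk, Mvd, Fdft1, Msmo1, Nsdhl, Hsd17b7 and Sc5d. Mvd, which makes isopentenyl diphosphate, had a log2 fold change of 0.71 ± 0.20 (SE, edgeR, adjusted p = 0.014). Fdft1, the squalene synthase, had one of 0.69 ± 0.16 (SE, edgeR, adjusted p = 0.0035), and Msmo1, a sterol methyl oxidase, one of 0.67 ± 0.15 (SE, edgeR, adjusted p = 0.0026). Hsd17b7, a sterol ketoreductase gene, had a log2 fold change of 0.58 ± 0.16 (SE, edgeR, adjusted p = 0.011).

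The genes that were not called at 9 weeks were Fdps, Mvk, Tm7sf2, Ebp and Dhcr7 (named after their values were seen). Their log2 fold changes were 0.36 for Mvk, 0.04 for Tm7sf2, 0.00076 for Ebp and 0.25 for Dhcr7, the last with an adjusted p of 0.030 in edgeR but under the 0.4 of the call rule. At 15 weeks all 18 were again positive, with a median log2 fold change of 0.33, against -0.025 over all genes tested. Then 3 of the 18 were called higher, against 3.54% of all genes tested, namely Cyp51, Mvd (log2 fold change 0.60 ± 0.20 SE, edgeR, adjusted p = 0.037) and Fdft1 (0.46 ± 0.16 SE, edgeR, adjusted p = 0.047). That count moved between 1 and 8 as single libraries were left out, the count being 8 without male vehicle replicate 2, 6 without male 15-week replicate 1, 5 without female vehicle replicate 1, male vehicle replicate 4 or male 15-week replicate 2, and 1 without female vehicle replicates 2 or 5, male vehicle replicates 1, 3 or 5, female 15-week replicate 2 or male 15-week replicate 5.

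Genes for sterol uptake and transport were read beside the enzymes. Of Stard4, Npc1l1, Npc1, Npc2 and Scarb1, none was called at 9 or 15 weeks in edgeR, where 8.51% and 7.79% of all genes tested were called. Among 5 genes a count of 0 says little at these shares. The median of their log2 fold changes was 0.0076 at 9 weeks (range -1.03 to 0.05) and -0.086 at 15 weeks (range -0.55 to 0.10).

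Genes of the machinery that controls SREBP2 were read with Srebf1, the gene of the related factor SREBP1. Of Scap, Insig2, Mbtps1, Mbtps2 and Srebf1, none was called at 9 or 15 weeks, where 8.51% and 7.79% of all genes tested were called. At such shares a count of 0 among 5 genes says little about them. Mbtps1, the site-1 protease gene, named after its values were seen, had log2 fold changes of -0.24 (edgeR, adjusted p = 0.00075) and -0.23 (edgeR, adjusted p = 0.0021), under the 0.4 of the rule. Fatty acid synthesis, which is mainly driven by the related SREBP1, had 1 of 10 genes called higher at 9 weeks and 2 at 15 weeks. Of all genes tested, 5.65% and 3.54% were called higher. The 9-week gene was Fads1, a fatty acid desaturase, with a log2 fold change of 0.96 ± 0.22 (SE, edgeR, adjusted p = 0.0031), but 0.18 with the leukocyte covariate (edgeR, adjusted p = 0.87). It was also called at 15 weeks (0.66, edgeR, adjusted p = 0.039, but 0.069 without male vehicle replicate 1, 0.080 with the smooth muscle covariate and 0.25 with the leukocyte covariate) together with the malic enzyme gene Me1 (1.39, edgeR, adjusted p = 0.013). Of 7 genes of the isoprenoid branches that leave the pathway at farnesyl diphosphate or before, none was called at either time, against 8.51% and 7.79% of all genes. For 7 genes too, a count of 0 says little at these shares.

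Genes for sterol efflux, for the oxysterol receptor LXR and its targets, and for cholesterol esterification were read next. Of these 11 genes, 2 were called lower at 9 weeks and 5 at 15 weeks, against 2.87% and 4.25% of all genes tested. At 9 weeks 1, Apoe, was called higher (log2 fold change 1.08 ± 0.35 SE, edgeR, adjusted p = 0.036), against 5.65% of all genes tested. With the leukocyte covariate its log2 fold change was -0.41 (edgeR, adjusted p = 0.75). Abcg5, which with Abcg8 forms the exporter of sterols into the gut lumen, was read in every group. In vehicle-treated mice its values were 13.4, 10.1, 5.74, 14.2 and 15.9 in the females and 51.2, 6.68, 20.9, 17.3 and 23.1 in the males (CPM). At 9 weeks they were 7.02, 6.33, 2.56, 3.70 and 5.54 in the females and 12.05, 10.2, 14.3, 3.04 and 7.50 in the males. At 15 weeks they were 14.9, 2.47, 6.02, 2.78 and 6.72 in the females and 2.37, 3.47, 2.54, 4.68 and 2.33 in the males. The highest vehicle value, in male vehicle replicate 1, was in the library with the most smooth muscle signal, and the groups overlapped at both times. Abcg5 fell by 1.29 ± 0.33 (SE) on the log2 scale at 9 weeks (edgeR, adjusted p = 0.0074) and by 1.90 ± 0.34 at 15 weeks (edgeR, adjusted p = 0.00066). Within the sexes, the 15-week log2 fold change of Abcg5 was -2.96 ± 0.50 (SE) in males (edgeR, adjusted p = 0.00071) and -0.84 ± 0.47 (SE) in females (edgeR, adjusted p = 0.51), and the difference between the sexes did not pass (-2.12 ± 0.67 SE, adjusted p = 0.47 in edgeR). At 15 weeks 4 of the 11 genes were called lower and 1 higher in males, and none in either direction in females. Of all genes tested, 4.55% were called lower and 4.37% higher in males, but 0.0123% and 0.0861% in females. Without male vehicle replicate 1 the log2 fold changes of Abcg5 were -1.04 (edgeR, adjusted p = 0.022) and -1.66 (edgeR, adjusted p = 0.0018), both still called. Abcg8 fell by 1.02 ± 0.31 (SE) on the log2 scale at 9 weeks (edgeR, adjusted p = 0.024) and by 1.48 ± 0.32 at 15 weeks (edgeR, adjusted p = 0.0034), and without that library the 9-week call was lost (-0.86, adjusted p = 0.058). At 15 weeks the cholesterol exporter gene Abca1 fell by 1.04 ± 0.25 on the log2 scale (edgeR, adjusted p = 0.0081) and Mylip, an LXR target, fell by 0.87 ± 0.22 (edgeR, adjusted p = 0.011). Without male vehicle replicate 1 Abca1 no longer met the call rule (-0.86, adjusted p = 0.022 in edgeR, with mean FPKM under 1). With the smooth muscle covariate neither passed (-0.78 with adjusted p = 0.061 and -0.55 with adjusted p = 0.12 in edgeR), whereas Abcg5 did at both times (-1.24 with adjusted p = 0.0084 and -1.67 with adjusted p = 0.0098). With the leukocyte covariate Abcg5 passed at 15 weeks (-2.04, adjusted p = 0.0012 in edgeR) but not at 9 weeks (-1.73, adjusted p = 0.19). The fifth gene called lower at 15 weeks was Soat1, which esterifies cholesterol (log2 fold change -0.43 ± 0.15 SE, edgeR, adjusted p = 0.045). Its call was lost without male vehicle replicate 1 (adjusted p = 0.063) and with the smooth muscle covariate (-0.35, adjusted p = 0.17 in edgeR).

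Clock genes were read as well, since cholesterol synthesis follows the time of day and the labels give no time of killing. Of 12 clock and clock output genes, Nr1d1 was called lower at 9 weeks (log2 fold change -0.77, edgeR, adjusted p = 0.043), Nfil3 was called higher at 9 weeks (1.02, edgeR, adjusted p = 0.034) and Per3 was called lower at 15 weeks (-1.22, edgeR, adjusted p = 0.019). Of all genes tested, 2.87% were called lower and 5.65% higher at 9 weeks, and 4.25% lower at 15 weeks. At such shares 1 call among 12 genes says little about the list. Without male vehicle replicate 1 the calls of Nr1d1 (adjusted p = 0.081 in edgeR) and Per3 (adjusted p = 0.051) were lost. By sex, 3 of the 12 were called lower and 2 higher in males at 9 weeks, with a median log2 fold change of -1.29. At 15 weeks 5 were called lower and 1 higher in males, also with a median of -1.29. Of all genes tested in males, 2.88% were called lower and 4.42% higher at 9 weeks, and 4.55% and 4.37% at 15 weeks. In females none of the 12 was called at either time in edgeR, with medians of -0.09 and -0.03. There 2.9% and 0.0984% of all genes tested were called in either direction. The difference between the sexes was not called for any of the 12 genes at either time, where 0% of all genes tested were called. The part of the time of day in the cholesterol gene values was not tested.

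**Figure D3:**
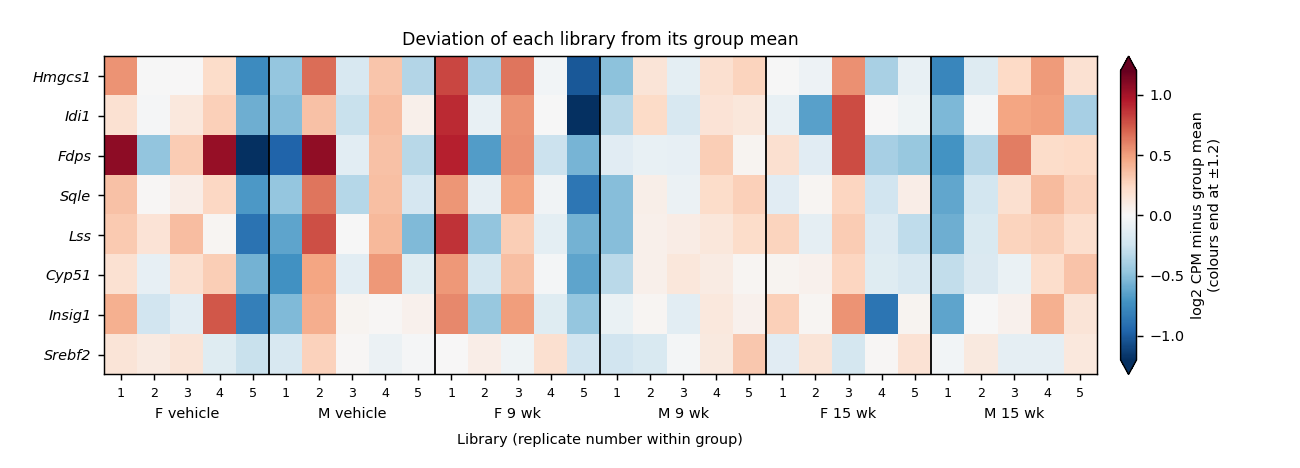
Deviation of each library from the mean of its own group (colour, log2 CPM) for the 8 genes (rows) in the 30 libraries (columns, by group and replicate). Columns are largely of a single colour, with female vehicle replicate 5, male vehicle replicate 1 and female 9-week replicate 5 low, and the Srebf2 row is paler than the others.

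Within groups the genes also varied together from mouse to mouse. After the group mean was taken from each gene's log2 CPM, the median Pearson r over the 28 pairs of the 8 genes was 0.79 across 30 libraries, with a range from 0.14 to 0.96, against -0.002 over all pairs of genes tested. Hmgcs1 and Sqle made the closest pair, with r = 0.96 and Spearman's rho = 0.96. Srebf2 stood apart, with a median r of 0.32 to the other 7 genes, whereas the medians of the others ran from 0.73 for Idi1 to 0.86 for Hmgcs1. On log2 FPKM the median r was 0.84, and Srebf2 was again lowest at 0.48. These are descriptions, since the libraries share preparation and differ in depth and cell make-up.

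The shared variation was visible as whole libraries that were low or high. Female vehicle replicate 5 was the lowest of its group in 8 of 8 genes, with a mean deviation of -0.81 on the log2 scale, and it was also the library with the fewest counts. Male vehicle replicate 1 was lowest in 8 of 8 (mean deviation -0.56) and held the most smooth muscle signal, 5277 CPM. Female 9-week replicate 5 was lowest in 7 of 8 (mean deviation -0.71), as were male 9-week replicate 1 (-0.33) and male 15-week replicate 1 (-0.53). Mitochondrial genes held 11.9% of counts in female 9-week replicate 5, the highest share of its group (4.47% to 6.89% in the others), and 11.3% in male 15-week replicate 1, the next to highest of its group. The highest share of the male 15-week group, 14.4%, was in replicate 3, which had a mean deviation of 0.21. In the vehicle groups the highest shares were 15.6% in female replicate 4 (mean deviation 0.34) and 9.73% in male replicate 2 (0.59). In males at 9 weeks the highest was 6.025% in replicate 4 (0.17), and in females at 15 weeks 23.0% in replicate 2 (-0.09). The part of these shares in the deviations was not tested. Among the high libraries, female 9-week replicate 1 was highest in 7 of 8 (mean deviation 0.64). Without female vehicle replicate 5, male vehicle replicate 1 and female 9-week replicate 5, the same 5 genes were called at 9 weeks, with log2 fold changes from 0.54 for Lss to 0.84 for Idi1.

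The genes most like the mean of the 8, ranked over the 16253 others by r of the deviations from group means in 30 libraries, were mostly enzymes of the same pathway. Among the 10 closest were Msmo1 (r = 0.97), Acat2 (0.90), Nsdhl (0.88), Fdft1 (0.87), Gramd2 (0.85), Aacs (0.85) and Hsd17b7 (0.80). Spearman's rho for these ran from 0.76 for Hsd17b7 to 0.97 for Msmo1. When the 2 libraries farthest from the median were left out, r still ran from 0.74 for Hsd17b7 to 0.97 for Msmo1. Of the 12 further enzyme genes, 8 were within the closest 100, whereas of the 5 genes Scap, Insig2, Mbtps1, Mbtps2 and Srebf1 none was. The median r was 0.71 for the 12 further enzyme genes, 0.43 for the fatty acid genes and -0.28 for the LXR and efflux genes, against 0.0067 over all.

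**Figure D4:**
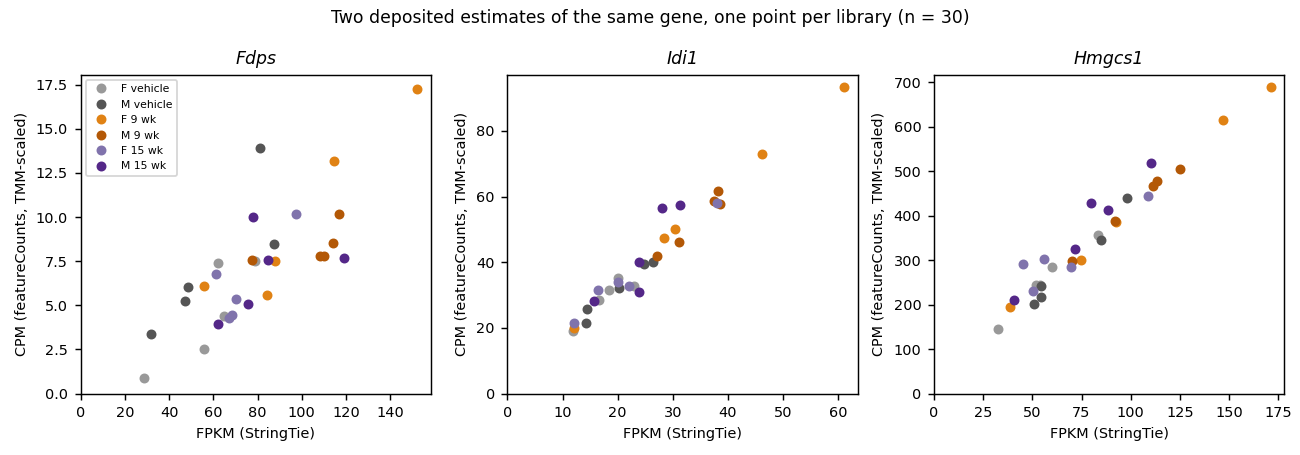
Counts (y axis, TMM-scaled CPM) against the deposited FPKM (x axis) of Fdps, Idi1 and Hmgcs1, with 1 point for each of 30 libraries, coloured by group. Fdps reaches no more than 17.3 CPM at FPKM values up to 152, whereas Hmgcs1 reaches 690.3 CPM at a similar FPKM.

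The counts of Fdps were out of proportion to its FPKM. They ran from 8 to 408 reads per library while its FPKM ran from 28.5 to 152, and the ratio of CPM to FPKM per kilobase of exon was 0.0215, at the 0.256th percentile of 11711 genes whose median was 0.942. Idi1 stood at 0.464, at the 11th percentile, and Hmgcs1 at 0.964. In the GENCODE M21 annotation 26.7% of the exon bases of Fdps, 1124 bases, are shared with another gene on the same strand, Gm43738, which held 0 counts in all 30 libraries and at most 0.235 FPKM. Transcripts of 7 other annotated genes matched those of Fdps at 90% identity or more over at least 200 bases, as did 5 for Idi1, 2 for Sqle, 1 for Hmgcs1 and none for Lss, Cyp51, Insig1 or Srebf2. Reads of such genes may be split between copies or left uncounted, and which of these applied was not tested. The Fdps values on counts are therefore uncertain, and so are its FPKM and TPM, since which of the 2 scales is nearer to its true level was not tested.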

How the data were processed

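Counts, FPKM and TPM per gene were made by the authors for 30 libraries, 1 per mouse. Per the labels and methods, stranded poly(A) libraries were demultiplexed (bcl2fastq 2.20.0.422), trimmed with Trim Galore and mapped with STAR to GRCm38 (mm10). The deposited counts came from featureCounts and the deposited FPKM and TPM from StringTie, whose strand and multi-mapping settings are not given in the sources used here. Counts ran from 9265804 to 30806392 per library. They were filtered (filterByExpr), scaled by TMM and fitted with edgeR 4.0.16 in R 4.3.3 over 6 groups, with Benjamini-Hochberg adjustment over 16261 genes in each of 15 comparisons. Log2 CPM used a prior count of 2 and log2 FPKM a pseudocount of 1. The code was tested on simulated data. Alternatives used DESeq2 1.42.0 and limma 3.58.1, other factors, filters and covariates, and left out single libraries. The genes and lists were chosen with earlier results of these data known. All 8 genes are named, then from each list up to 4 called genes per direction and comparison, and the 10 genes most alike. Some genes of these lists are not reported here.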

Additional observations from a re-analysis of the deposited data

Results flagged for a closer look

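Of 48 sets of 5 libraries (8 genes in 6 groups), 3 held a library set far from the other 4 in log2 CPM, where chance alone gives about 1 in 20 sets. Lss in female vehicle replicate 5 stood at 4.883 on the log2 CPM scale, against a group median of 5.931, the gap to its nearest neighbour being 0.724 of the group's range. Lss in male 9-week replicate 1 stood at 5.962, against a median of 6.56, with a gap of 0.777 of the range. Cyp51 in the same library, male 9-week replicate 1, stood at 7.358, against a median of 7.741, with a gap of 0.754 of the range. All 3 were the lowest value of their group. The first is the library with the fewest counts, and the other library was also lowest of its group in 7 of the 8 genes.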

How the results depend on the processing

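At 9 weeks with the sexes averaged, the count of 5 of 8 genes became 0 with the leukocyte covariate (and 0 of 18 enzyme genes), 4 with the epithelial covariate, 6 with either FPKM fit, and 3 to 5 as single libraries were left out, and it stayed at 5 under the other alternatives. The fits with leukocyte or smooth muscle covariates, on FPKM, and without 3 libraries (female vehicle replicate 5, male vehicle replicate 1 and female 9-week replicate 5) were added after seeing the data. At 15 weeks the count of 1 became 2 with DESeq2 or TMM-scaled FPKM, 0 with the epithelial, smooth muscle or leukocyte covariate or FPKM as deposited, and 1 to 2 as single libraries were left out. The 3 of 18 enzyme genes called at 15 weeks became 6 with DESeq2, 1 with the compared libraries only, the replicate block or without the 3 libraries, 0 with those 3 covariates or FPKM as deposited, and 1 to 8 as single libraries were left out. Between 15 and 9 weeks the count was 1 without the 3 libraries, in females too, and 0 to 1 as single libraries were left out. In males at 9 weeks the count of 1 was 3 with DESeq2, 2 with RLE factors, no filter, the compared libraries only, the replicate block, the mesenchymal or smooth muscle covariate, adjusted p alone or FPKM on either scale, 0 with the leukocyte covariate, and 1 to 3 as single libraries were left out. In females at 9 weeks the count of 0 was 2 with DESeq2, 1 with the epithelial covariate, 3 without the 3 libraries, and 0 to 4 as single libraries were left out. In males at 15 weeks the count of 1 was 0 with the compared libraries only, the mesenchymal, epithelial or smooth muscle covariate, FPKM as deposited or without the 3 libraries, 2 with TMM-scaled FPKM, and 0 to 1 as single libraries were left out. Log2 fold changes near 0 turned their sign. Fdps at 15 weeks was -0.051 and in males at 9 weeks -0.0049 without the 3 libraries, and in those males -0.0048 (without male vehicle replicate 1) to 0.54 (without male vehicle replicate 2) as single libraries were left out. Srebf2 at 15 weeks was -0.018 with the epithelial covariate and -0.022 on FPKM as deposited. Srebf2 in females at 9 weeks, -0.0013, was 0.0054 with DESeq2, 0.0060 with RLE factors, 0.00029 with no filter, 0.0066 with the compared libraries only, 0.083 on FPKM as deposited, 0.0010 on TMM-scaled FPKM, and -0.064 to 0.038 as single libraries were left out. The cause of these changes was not tested. FPKM as deposited moved the median log2 fold change of all genes to -0.104 at 15 weeks and -0.137 between 15 and 9 weeks, and the share of calls that were higher at 9 weeks to 79.4% from 66.3%, and at 15 weeks to 19% from 45.5%. Replicate numbers did not pair the mice, since 12 of 75 same-numbered pairs had a correlation over 0.1 and 4 of 30 libraries matched best with their own number, and beyond the counts above the replicate block changed no call of the sex-averaged comparisons. Fdps was counted in 8 to 408 reads per library.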
